A study of Mus musculus with 477 samples.

Results

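The collagen genes are the rows of the count table whose symbol has the form of a collagen alpha chain (Col, a type number, a and a chain number), and 44 of the 21004 rows matched. By the form of the assembled protein they were grouped into 11 fibrillar chains, 6 basement membrane chains, 9 fibril-associated chains (FACIT) and 18 others, the last made of 6 beaded filament, 4 transmembrane, 3 short-chain network, 2 multiplexin, 1 anchoring fibril and 2 unclassed chains. Their reads were followed in 477 single cells (165 tumor and 312 luminal) from 11 female mice, captured on Fluidigm C1 chips that take 1 cell per chamber and amplify its full-length cDNA. All mice carried MMTV-Cre, which recombines floxed alleles in mammary epithelium, on a mixed C57BL/6 and 129/Sv background. Luminal donors carried the ROSA mT/mG reporter and were 3 to 4 months old. For the tumor mice, the reporter is not stated and no age is given here. The paper reports that tumors of Brca1 fl/fl mice form after a year or more, so for these age and tumor cannot be told apart. Br mice were Brca1 fl/fl, 53 mice were Trp53 fl/+ with intact *Brca1*, and Br53 mice were Brca1 fl/fl; Trp53 fl/+. Luminal cells (L) were sorted from virgin mice (v) or mice at day 12.5 of pregnancy (p), which gave vBrL (35 cells), vBr53L (39), v53L (40), pBrL (71 cells of pBrL-1 and 38 of pBrL-2), pBr53L (53) and p53L (36). Tumor cells (T) came from the Br tumors BrT1 (47 cells) and BrT2 (37) and the Br53 tumors Br53T1 (30) and Br53T2 (51). Blood and endothelial cells had been depleted before the sort. Luminal cells had then been gated as CD24 high, CD29 low and positive for the green reporter that marks Cre activity, and tumor cells as CD24 positive alone, so the low CD29 gate, which leaves out most basal cells, was set for luminal cells and not for tumors.

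Several limits apply to every value. Each group was 1 mouse, except pBrL with 2 mice, so a difference between single tumors has no replicate behind it. Whole-gene counts do not measure the floxed exons of *Brca1* and *Trp53*, so they give no check of the genotypes. There was no mouse with both genes intact, and no Trp53 tumor with intact *Brca1*. For BrT1, BrT2 and Br53T1, which ran on separate chips, chip and tumor cannot be told apart, whereas Br53T2 shared a chip with pBrL-2, vBr53L with pBr53L, and v53L with p53L. Summed over cells, 40338926 to 115827852 reads were counted per mouse, and 170209 to 3550564 per cell. No molecular identifiers were used, so intervals on reads or cells cover counting error only. Levels are given in CPM, the counts of a gene per 1000000 counts of the mouse or cell, and, where chains are compared with each other, as CPM per kb of annotated exon.

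The markers of the sorted types were read first. The 6 luminal markers summed to 7240 to 12783 CPM in the luminal mice, 5545 in Br53T1, 5617 in Br53T2 and 4059 in BrT2, but 512 in BrT1. In BrT1, the adhesion gene *Cdh1* had 0 reads, *Epcam* was read in 7 of 47 cells, and *Vim*, *Fn1* and the fibroblast proteoglycan gene *Dcn* were read in 47 of 47. The luminal keratin genes *Krt8* and *Krt18* were still read in 40 of 47 and 34 of 47 BrT1 cells. *Cd24a*, which encodes the surface protein of the sort, was read in 47 of 47 BrT1 cells without thinning and stood at 335 CPM there, between 259.6 in Br53T1 and 621 in BrT2. The fibroblast marker *Lum* was at 0 reads in all 11 mice, and *Dpt* was at 0.0364 CPM in Br53T1 and 0 in the others. Also, 1 luminal cell of pBrL-1 had 16875 CPM of the smooth muscle actin gene *Acta2*, 111 of *Krt18*, 6.52 of *Epcam* and 6368 CPM of collagen reads. It carried 90.3% of the *Col4a1* reads, 98.3% of the *Col4a2* reads and 99.6% of the *Col18a1* reads of that mouse, and results below that rest on these 3 chains are also given without it. Among collagen levels of at least 10 CPM, 7 of 66 in tumors and 15 of 38 in luminal mice fell more than 2-fold when the cell with most reads of that chain was left out, so many luminal levels rest on 1 cell.

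Collagens are secreted or membrane proteins whose alpha chains wind around each other into a rope-like helix. Fibrillar types build the cables of connective tissue and cartilage, type IV chains form the sheet-like network of the basement membrane on which mammary epithelium rests, and FACIT chains decorate the surface of fibrils. In the normal gland most fibrillar collagen is made by stromal fibroblasts, and luminal cells are separated from the basement membrane by myoepithelial cells. In breast tumors, the amount and alignment of collagen are known to bear on invasion and stiffness.

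The study knocked out *Col2a1* and *Col6a2* with CRISPR guides in mammary epithelial cell lines. It had chosen them from genes high in tumors both in these same cells and in bulk RNA sequencing. It also listed *Col1a2*, *Col5a1* and *Col6a1* as tumor genes in this way, so the tumor levels of these 5 chains here are not independent evidence. The same holds for *Comp*, *Fn1*, *Loxl3*, *Plod2* and *Mrc2*, which that list also names. Gene positions are on GRCm38, the mm10 build to which the reads were aligned. Their guides are shown because they mark where each gene was cut. The *Col2a1* guide lies at chr15:98004439-98004458 (GRCm38) in coding sequence of exon 1 of 54, and the *Col6a2* guide at chr10:76614900-76614919 in coding sequence of exon 3 of 28. Both genes lie on the minus strand, and capitals mark the PAM next to the guide in the genome.
Col2a1 guide: gctgacgctgctcatcgccgCGG
Col6a2 guide: agtcaacgtgtatttcgtgtTGG

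The promoters shown next belong to chains that each stood high in a different tumor, *Col6a1* in BrT1, *Col11a1* in BrT2 and *Col17a1* in Br53T2, and to the *Col4a1* and *Col4a2* pair, whose annotated starts lie 21 bases apart on opposite strands. The first 3 run from 250 bases before to 50 bases after the RefSeq start (GRCm38.p6), at chr10:76725995-76726294 (minus strand), chr3:114030290-114030589 (plus strand) and chr19:47691993-47692292 (minus strand). The last is the stretch of 78 bases common to the windows of *Col4a1* and *Col4a2*, at chr8:11312777-11312854, written on the plus strand. Capitals mark a match on either strand to the TATA box motif TATAAA, the CCAAT motif, the GC box motif GGGCGG or the AP-1 type motif TGANTCA, and no matches overlapped in the sequences printed.
Col6a1: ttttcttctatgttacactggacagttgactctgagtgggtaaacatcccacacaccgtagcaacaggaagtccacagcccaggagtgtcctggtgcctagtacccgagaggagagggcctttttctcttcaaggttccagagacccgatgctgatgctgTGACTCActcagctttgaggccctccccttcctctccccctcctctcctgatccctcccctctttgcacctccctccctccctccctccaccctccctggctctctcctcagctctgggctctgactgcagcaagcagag
Col11a1: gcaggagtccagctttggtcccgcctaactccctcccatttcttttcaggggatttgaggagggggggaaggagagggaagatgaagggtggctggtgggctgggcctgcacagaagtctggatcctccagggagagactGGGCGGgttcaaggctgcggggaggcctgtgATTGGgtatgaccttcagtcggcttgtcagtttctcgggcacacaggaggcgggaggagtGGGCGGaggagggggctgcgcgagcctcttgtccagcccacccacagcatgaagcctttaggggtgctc
Col17a1: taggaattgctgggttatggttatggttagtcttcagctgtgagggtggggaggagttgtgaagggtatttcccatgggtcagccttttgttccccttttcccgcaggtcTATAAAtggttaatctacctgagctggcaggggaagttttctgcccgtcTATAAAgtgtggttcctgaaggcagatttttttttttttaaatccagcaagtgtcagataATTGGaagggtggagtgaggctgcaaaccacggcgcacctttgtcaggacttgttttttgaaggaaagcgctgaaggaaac
Col4a1 and Col4a2: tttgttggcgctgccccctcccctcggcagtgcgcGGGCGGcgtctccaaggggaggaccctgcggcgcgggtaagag

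Of the 44 collagens, 35 had a window, and 22 of these held GGGCGG on either strand, against 35.7% of all 32851 windows. CCAAT was in 13 (37.4% of all windows), TATAAA in 5 (13.6%) and TGANTCA in 1, *Col6a1* (7.81%). A match is a description of these letters and not of a factor. *Col17a1* was among the 5 with TATAAA, and *Col6a1* was the only collagen of the 35 with TGANTCA.

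Collagen reads made up a larger share of all reads in each tumor than in any luminal mouse. The summed level of the 44 genes was 1037 CPM in Br53T1, 1314 in Br53T2, 4286 in BrT1 and 2914 in BrT2, and 249 CPM in vBrL, 259 in vBr53L, 475 in v53L, 227 in pBrL-1, 131 in pBrL-2, 106 in pBr53L and 197 in p53L. The tumors did not overlap with the luminal mice. On the log2 scale the mean was 10.99 ± 0.96 (SD, n = 4) in tumors and 7.73 ± 0.70 (SD, n = 7) in luminal mice. These sums equal 0.104% to 0.429% of the reads in tumors and 0.0106% to 0.0475% in luminal mice. Within the chip shared by Br53T2 and pBrL-2, the sum was 1314 against 131 CPM. Without its *Acta2*-high cell, pBrL-1 had 136 CPM in place of 227.

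The classes divided the mice differently. Fibrillar chains summed to 239 CPM in Br53T1, 67.5 in Br53T2, 800.0 in BrT1 and 1058 in BrT2, against 0.838 to 14.6 CPM in luminal mice, so this class was the one with the widest gap, at 8.42 ± 1.81 (SD, n = 4) against 1.88 ± 1.21 (SD, n = 7) on the log2 scale. Basement membrane chains summed to 326 CPM in Br53T1, 543 in Br53T2, 852 in BrT1 and 921 in BrT2, and to 21.9 to 202 CPM in luminal mice, again with no overlap. FACIT chains summed to 269 CPM in Br53T1, 215 in Br53T2, 68.4 in BrT1 and 768 in BrT2, and to 45.5 to 174 CPM in luminal mice, and here BrT1 lay inside the luminal range. The other chains summed to 203 CPM in Br53T1, 489 in Br53T2, 2566 in BrT1 and 167 in BrT2, and to 0.196 to 354 CPM in luminal mice, where v53L lay above BrT2 and Br53T1.

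**Figure D1:**
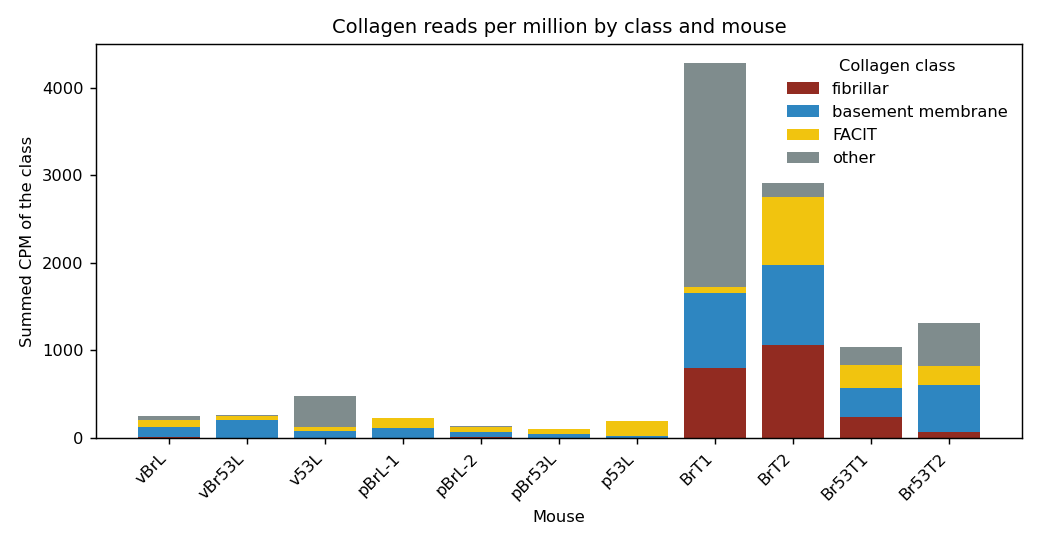
Summed CPM of the 4 collagen classes (stacked, vertical axis) in each of the 11 mice (horizontal axis), 1 bar per mouse, with no error bar because a bar is 1 mouse. The tumor bars reach 1037 to 4286 CPM and the luminal bars 106 to 475 CPM.

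Each tumor drew its collagen reads from a different mix of classes. Other chains took 59.9% of the collagen reads of BrT1, most of them beaded filament chains (41%). In BrT2 the fibrillar chains took 36.3%, the basement membrane chains 31.6% and FACIT 26.4%. Br53T1 was divided as 23% fibrillar, 31.4% basement membrane, 25.9% FACIT and 19.6% other. Basement membrane chains took 41.3% in Br53T2, with 17.2% in transmembrane chains. Per kb of exon, the leading chains were *Col6a1* in BrT1 (290.3 CPM per kb, before *Col18a1* with 105), *Col9a1* in BrT2 (87.9, before *Col9a2* with 53.1), *Col9a3* in Br53T1 (32, before *Col18a1* with 21.8) and *Col4a1* in Br53T2 (35.6, before *Col17a1* with 34.7). Among luminal mice, short-chain network chains took 70.7% in v53L and FACIT 88.2% in p53L.

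Of the 44 collagens, 30 reached 10 CPM in at least 1 mouse, and 26 of these were highest in a tumor: 2 in Br53T1, 5 in Br53T2, 10 in BrT1 and 9 in BrT2. The exceptions were *Col8a1*, *Col8a2*, *Col4a3* and *Col6a3*, each highest in a luminal mouse. The number of chains at 10 CPM or more was 13 in Br53T1, 16 in Br53T2, 17 in BrT1 and 20 in BrT2, and 3 to 7 in luminal mice. A chain could reach this limit through a tumor alone, and the share over all genes was not counted. These counts therefore only describe the chains.

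**Figure D2:**
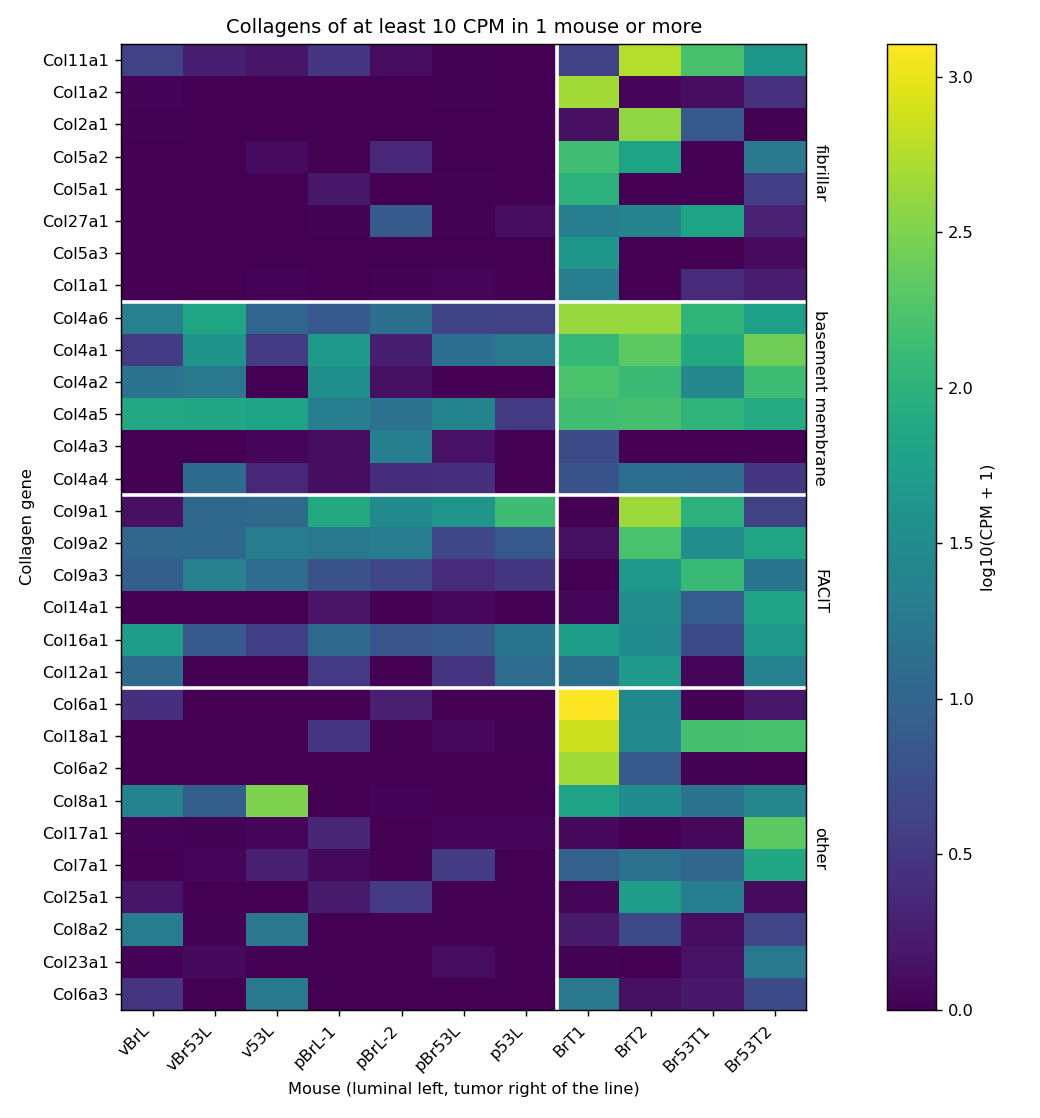
Level of the 30 collagens that reached 10 CPM in at least 1 mouse (vertical axis, by class) in each mouse (horizontal axis), as log10(CPM + 1) in color. The 4 tumors, right of the line, are brighter than the 7 luminal mice for most chains, and different chains are brightest in different tumors.

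Among fibrillar chains, the type I and V chains were highest in BrT1. The cartilage chains *Col2a1* and *Col11a1* were highest in BrT2, whereas *Col27a1* and *Col11a2* were highest in Br53T1. *Col1a2* (chr6:4504814-4541544), the second chain of type I collagen, had 0.273 CPM in Br53T1, 1.74 in Br53T2, 466 in BrT1 and 0.120 in BrT2, and at most 0.0577 CPM in luminal mice. BrT1 alone stood high. Its partner *Col1a1*, which supplies most of the type I helix, had 1.40 CPM in Br53T1, 0.738 in Br53T2, 20.4 in BrT1 and 0 in BrT2, and at most 0.139 in luminal mice. In BrT1 the level of *Col1a1* per kb of exon was 0.0827 of that of *Col1a2*, *Col1a1* was read in 6 of 47 cells and *Col1a2* in 42 of 47, and without its top cell *Col1a1* was at 8.92 CPM. *Col3a1*, which joins type I in soft tissue fibrils, reached 7.55 CPM in BrT1 and at most 0.873 CPM elsewhere.

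Type V chains, which sit in the core of type I fibrils and limit their width, were next. *Col5a1* had 0 CPM in Br53T1, 2.75 in Br53T2, 98.7 in BrT1 and 0.0200 in BrT2, and at most 0.596 CPM in luminal mice. *Col5a2* had 0 CPM in Br53T1, 16.4 in Br53T2, 140.5 in BrT1 and 62.9 in BrT2, and at most 1.23 CPM in luminal mice, so it was read in 3 of the 4 tumors. *Col5a3* had 0 CPM in Br53T1, 0.242 in Br53T2, 43.1 in BrT1 and 0 in BrT2 and 0 reads in the 7 luminal mice. Taking 3 reads over the 5 Brca1-deficient luminal mice as the floor, its pooled tumor level was at least 1969-fold higher, a ratio that rests on BrT1. In BrT1, *Col5a1* was read in 25 of 47 cells, *Col5a2* in 31 of 47 and *Col5a3* in 19 of 47.

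The cartilage type fibrillar chains had another distribution. *Col2a1* (chr15:97975602-98004695), the main fibrillar collagen of cartilage, had 6.09 CPM in Br53T1, 0.0330 in Br53T2, 0.331 in BrT1 and 384 in BrT2, and at most 0.0289 CPM in luminal mice. It was read in 32 of 37 BrT2 cells (86.5%, exact 95% interval 71.2% to 95.5%) after each cell was thinned to 100000 reads, in 35 of 37 without thinning, and in 0 luminal cells of any mouse after thinning, which by a floor of 3 cells allows a share of up to 4.23% of the 71 cells of pBrL-1 and 8.57% of the 35 cells of vBrL, the mice with most and fewest cells. Without thinning, its luminal reads were 2 in vBrL and 1 each in v53L and pBr53L. *Col11a1* (chr3:114030540-114220718), which nucleates cartilage fibrils, had 159 CPM in Br53T1, 43.1 in Br53T2, 3.00 in BrT1 and 578 in BrT2. Luminal mice had lowest 0, median 0.496 and highest 2.97 CPM (vBrL), so BrT1 lay just above the highest luminal mouse and the other tumors far above it. *Col27a1*, another cartilage chain, had 62.1 CPM in Br53T1, 0.903 in Br53T2, 20.4 in BrT1 and 23.6 in BrT2, with a luminal maximum of 6.50 CPM in pBrL-2 that put Br53T2 inside the luminal range. *Col11a2* reached 9.86 CPM in Br53T1 and 9.72 in BrT2, and 6.45 in pBrL-2. Without the top cell these were 6.80, 4.53 and 0 CPM, so the luminal value came from 1 cell.

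In BrT2, the cartilage marker *Comp* was read in 30 of 37 cells and stood at 377 CPM, against at most 3.17 elsewhere. Of the 32 BrT2 cells with a *Col2a1* read, 28 also had *Comp* and 28 had *Epcam*. The cartilage markers *Matn1* and *Matn3* were at most 0.0110 and 0.0218 CPM in any mouse, and the 6 chondrocyte markers summed to 627 CPM in Br53T1, 923 in Br53T2, 1838 in BrT1, 705 in BrT2 and 234 to 594 in luminal mice. Not all of the 6 followed *Comp*. *Acan* was 88.5 CPM in BrT1 and 53.4 in BrT2, where 31 of 47 and 3 of 37 cells had a read, and *Cnmd* was 245 in Br53T1 and 20.2 in BrT2. Of these sums, *Sox9* was 1749.9 CPM in BrT1 and 254 in BrT2. Whether these markers have a part in the fibrillar result was not tested.

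Basement membrane chains were also read in luminal mice. *Col4a1* and *Col4a2*, which build the network of nearly all basement membranes, share a promoter region and 22 annotated exon bases on opposite strands. *Col4a1* had 75.6 CPM in Br53T1, 266 in Br53T2, 116 in BrT1 and 207 in BrT2. In luminal mice it had 2.45 CPM in vBrL, 39.9 in vBr53L, 2.48 in v53L, 45.3 in pBrL-1, 0.844 in pBrL-2, 12.5 in pBr53L and 16.5 in p53L, so every tumor lay above every luminal mouse. *Col4a2* had 26.7 CPM in Br53T1, 138 in Br53T2, 168 in BrT1 and 128 in BrT2. Luminal mice had lowest 0, median 0.389 and highest 34.2 CPM (pBrL-1), and Br53T1 lay inside this range. Per kb of exon, *Col4a1* over *Col4a2* was 2.51 in Br53T1, 1.71 in Br53T2, 0.615 in BrT1 and 1.43 in BrT2. Without its *Acta2*-high cell, pBrL-1 had 4.46 CPM of *Col4a1* and 0.587 of *Col4a2*, and then every tumor also lay above every luminal mouse for *Col4a2*. The 14.2 CPM of *Col4a2* in vBrL came from 1 cell, and vBr53L had 6.33 CPM without its top cell.

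*Col4a5* and *Col4a6* lie head to head on the X chromosome, with starts 1309 bases apart, and supply the network of some epithelial basement membranes. *Col4a6* (chrX:141165403-141474076) had 107 CPM in Br53T1, 55.1 in Br53T2, 417 in BrT1 and 419 in BrT2, and 21.7 CPM in vBrL, 65.1 in vBr53L, 9.22 in v53L, 6.22 in pBrL-1, 13.1 in pBrL-2, 3.32 in pBr53L and 3.01 in p53L. The Br tumors stood highest, and Br53T2 lay below vBr53L. *Col4a5* had 105 CPM in Br53T1, 81.2 in Br53T2, 141 in BrT1 and 155 in BrT2, and 73.3 CPM in vBrL, 69.1 in vBr53L, 61.5 in v53L, 20.6 in pBrL-1, 13.3 in pBrL-2, 24.5 in pBr53L and 2.36 in p53L. No tumor overlapped with a luminal mouse, although 81.2 CPM in Br53T2 stood close to 73.3 in vBrL, and every pregnant mouse was below every virgin mouse. The ratio *Col4a5* over *Col4a6* per kb was 0.401 in BrT1 and 0.438 in BrT2, 1.16 in Br53T1 and 1.75 in Br53T2, and 0.929 to 8.75 in luminal mice.

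*Col4a3* and *Col4a4*, best known from the kidney filter, stayed low. *Col4a3* had its highest level in pBrL-2, at 20.8 CPM from 3 of 38 cells, with 4.23 in BrT1 and at most 0.407 elsewhere. *Col4a4* had 11.8 CPM in Br53T1, 2.06 in Br53T2, 5.44 in BrT1 and 12.1 in BrT2 and a luminal maximum of 11.5 in vBr53L. Without the top cell of each mouse, *Col4a4* was 6.93 CPM in Br53T1, 0.618 in Br53T2, 1.41 in BrT1, 0.370 in BrT2 and 3.32 in vBr53L.

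FACIT chains held a luminal as well as a tumor signal. *Col9a1* (chr1:24177610-24252684), a type IX chain that coats type II fibrils, had 97.3 CPM in Br53T1, 3.06 in Br53T2, 0 in BrT1 and 445 in BrT2, and 0.375 CPM in vBrL, 9.90 in vBr53L, 10.7 in v53L, 75.9 in pBrL-1, 28.6 in pBrL-2, 41.1 in pBr53L and 139 in p53L. All 4 pregnant mice lay above all 3 virgin mice, and BrT1 had 0 reads. The chain was read in 42 of 71 cells of pBrL-1, 22 of 38 of pBrL-2, 20 of 53 of pBr53L and 21 of 36 of p53L, against 0 of 35 in vBrL, 3 of 39 in vBr53L and 4 of 40 in v53L. Without thinning these counts were 50, 31, 30 and 30 in pregnant and 3, 5 and 6 in virgin mice. Of these pregnant cells, 41 of 42, 22 of 22, 20 of 20 and 21 of 21 also had an *Epcam* read.

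The other type IX chains were spread more evenly over the stages. *Col9a2* had 32.5 CPM in Br53T1, 65.6 in Br53T2, 0.386 in BrT1 and 164 in BrT2, and lowest 3.58, median 9.76 and highest 19.3 CPM (v53L) in luminal mice. The 19.3 CPM of v53L came almost wholly from 1 cell, and was 0.153 without it. *Col9a3*, which shares 234 annotated exon bases with *Tcfl5* on the other strand, had 123 CPM in Br53T1, 14.9 in Br53T2, 0 in BrT1 and 45.1 in BrT2, and 7.59 CPM in vBrL, 21.7 in vBr53L, 11.9 in v53L, 5.24 in pBrL-1, 3.60 in pBrL-2, 1.43 in pBr53L and 2.23 in p53L. Virgin mice were above pregnant mice for this chain, but without its top cell v53L had 2.47 CPM, which is below pBrL-1. All 3 type IX chains stood at 0.386 CPM or less in BrT1.

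The remaining FACIT chains were of connective tissue type. *Col14a1*, which binds fibrils of skin and tendon, had 7.09 CPM in Br53T1, 64.3 in Br53T2, 0.0994 in BrT1 and 33.5 in BrT2, and at most 0.458 CPM in luminal mice. Its Br53T2 level was 7.62 CPM without the top cell. *Col12a1*, which also binds the surface of type I fibrils, had 0.109 CPM in Br53T1, 22.1 in Br53T2, 13 in BrT1 and 47.1 in BrT2, and at most 11.8 CPM in luminal mice. *Col16a1*, found near basement membranes and in cartilage, had 3.84 CPM in Br53T1, 44.1 in Br53T2, 54.7 in BrT1 and 30.1 in BrT2, and lowest 2.80, median 6.31 and highest 52.3 CPM (vBrL) in luminal mice, so its arms overlapped over most of their range.

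Among the other chains, the type VI beaded filament genes *Col6a1*, *Col6a2* and *Col6a3* had their highest tumor levels in BrT1, and *Col6a4*, *Col6a5* and *Col6a6* had 0 reads there. *Col6a1* (chr10:76708792-76726168) had 0.0364 CPM in Br53T1, 0.594 in Br53T2, 1271 in BrT1 and 27.5 in BrT2, and at most 1.63 CPM in luminal mice. *Col6a2* (chr10:76595762-76623630), its partner in the filament and 102538 bases away on the same strand, had 0.0364 CPM in Br53T1, 0.0220 in Br53T2, 471 in BrT1 and 6.51 in BrT2 and 0 reads in all 7 luminal mice. With 43035 tumor reads and a floor of 3 reads over the 5 Brca1-deficient luminal mice, its pooled tumor level was at least 21595-fold higher, again resting on BrT1. Per kb of exon, *Col6a1* stood 5.13-fold above *Col6a2* in BrT1. The third filament chain, *Col6a3*, had 0.638 CPM in Br53T1, 4.21 in Br53T2, 16.3 in BrT1 and 0.361 in BrT2, and its highest level was 16.9 CPM in v53L, or 5.01 without the top cell of that mouse.

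In BrT1, *Dcn* was high beside the type I, V and VI chains, whereas other fibroblast markers did not all follow. The 10 fibroblast markers summed to 5195 CPM in BrT1, of which *Dcn* was 4356, against 226 to 733 CPM in the other tumors and 0.851 to 714 CPM in luminal mice. *Pdgfra* was also highest in BrT1, at 105 CPM against at most 6.51 elsewhere. *Postn* was lowest of the tumors there (208 CPM in Br53T1, 449.7 in Br53T2, 163 in BrT1 and 278 in BrT2), *Fbln2* stood at 480.0 CPM in BrT1 and 445 in BrT2, and *Lum*, *Thy1*, *Dpt* and *Pi16* had 0 reads in BrT1. The 8 mesenchymal markers summed to 189 CPM in Br53T1, 597 in Br53T2, 9486 in BrT1, 6568 in BrT2 and 4.02 to 104 in luminal mice. All 47 BrT1 cells had reads of *Col6a1*, *Dcn*, *Vim* and *Fn1*, and 7 had *Epcam* as well. *Dcn* at 711 CPM in vBrL and 579 in vBr53L went with at most 1.63 CPM of *Col6a1* there. The part of these markers in the collagen levels was not tested.

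*Col18a1* (chr10:77052178-77166548), a basement membrane proteoglycan and the source of endostatin, differed between tumors and luminal mice without overlap. It had 153 CPM in Br53T1, 159 in Br53T2, 734 in BrT1 and 28.1 in BrT2, and 0.0144 CPM in vBrL, 0 in vBr53L, 0 in v53L, 1.96 in pBrL-1, 0.0260 in pBrL-2, 0.159 in pBr53L and 0.0436 in p53L. Every tumor lay above every luminal mouse, and the highest luminal mouse, pBrL-1, owed 99.6% of its reads to the *Acta2*-high cell. *Col18a1* was read in 47 of 47 cells of BrT1, 14 of 37 of BrT2, 25 of 30 of Br53T1 and 26 of 51 of Br53T2, and in 1 luminal cell each of pBrL-1 and pBr53L. Without thinning, the tumor counts were 47, 23, 29 and 45, and at most 2 cells had a read in any luminal mouse.

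*Col17a1* (chr19:47646344-47692094), a transmembrane chain of the hemidesmosomes that fix basal epithelial cells to the basement membrane, was high in a single tumor. It had 0.182 CPM in Br53T1, 209 in Br53T2, 0.177 in BrT1 and 0.0200 in BrT2, and at most 1.17 CPM in luminal mice. *Col7a1*, which forms the anchoring fibrils below hemidesmosomes, had 9.71 CPM in Br53T1, 70.5 in Br53T2, 7.94 in BrT1 and 13.3 in BrT2, and at most 2.54 CPM in luminal mice. Every tumor lay above every luminal mouse for *Col7a1*, and Br53T2 lay above the other tumors. All 13 Br53T2 cells with a *Col7a1* read were among the 28 of 51 with *Col17a1* (54.9%, exact 95% interval 40.3% to 68.9%).

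The basal markers were also highest in Br53T2. All 4 tumors, and not this one alone, were sorted without the low CD29 gate of the luminal cells. The 6 basal markers summed to 5335 CPM in Br53T2, against 21 to 274 CPM in the other tumors and 0 to 375 CPM in luminal mice. Of the 28 Br53T2 cells with *Col17a1*, 28 had a read of *Krt17*, 25 of *Krt14*, 23 of *Acta2* and 26 of *Epcam*, where over all 51 cells these were read in 43, 35, 32 and 47. In the 19 cells above 100 CPM of *Acta2*, pooled levels were 515 CPM of *Col17a1*, 680 of *Col4a1*, 366 of *Col4a2* and 125 of *Col7a1*, and in the 32 cells below they were 41.7, 40.4, 13.9 and 41 CPM. The median cell had 179 and 2.00 CPM of *Col17a1* above and below the limit, and 229 and 2.63 of *Col4a1*. Pooled levels of *Col4a6* (58.4 and 53.3 CPM) and *Col18a1* (196 and 138 CPM) differed less, whereas their median cells stood at 13.8 and 4.59 CPM and at 29 and 3.20 CPM. This division was made after the values had been seen, 4 cells lay within 2-fold of the limit, and the part of the basal cells in the Br53T2 levels was not tested further. pBrL-2, on the same chip, had 0 reads of *Col17a1*.

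*Col8a1* (chr16:57624258-57754737), a short-chain network collagen of vessel walls and the cornea, was the main luminal exception. It had 23.3 CPM in vBrL, 7.68 in vBr53L, 320.0 in v53L, 0 in pBrL-1, 0.0649 in pBrL-2, 0.00993 in pBr53L and 0.0218 in p53L. The virgin mice thus lay above all pregnant mice, with v53L highest of all 11. Without the top cell of each mouse, vBrL was at 8.86, vBr53L at 0.641 and v53L at 268 CPM, so 1 cell held most of the reads of vBrL and vBr53L. Tumors had 14.2 CPM in Br53T1, 25 in Br53T2, 61.9 in BrT1 and 31.7 in BrT2, all within the range of the virgin mice with all cells. In v53L it was read in 20 of 40 cells, all with an *Epcam* read and 10 with *Dcn*. Its partner *Col8a2* had 20.0 CPM in vBrL and 15.9 in v53L, at most 0.0441 in the other luminal mice and at most 3.89 in tumors. Without the top cell, *Col8a2* was 4.35 CPM in vBrL and 9.98 in v53L.

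Of the other transmembrane chains, *Col25a1* and *Col23a1* reached 10 CPM in a tumor and *Col13a1* did not. *Col25a1*, a chain first known from brain, had 20.2 CPM in Br53T1, 0.220 in Br53T2, 0.132 in BrT1 and 52.4 in BrT2, and at most 2.39 CPM in luminal mice. *Col23a1* had 0.401 CPM in Br53T1, 17 in Br53T2, 0.0442 in BrT1 and 0 in BrT2, and at most 0.268 CPM in luminal mice, and its Br53T2 level was 4.10 CPM without the top cell. The 14 collagens below 10 CPM were *Col11a2*, *Col3a1*, *Col19a1*, *Col15a1*, *Col6a6*, *Col28a1*, *Col22a1*, *Col20a1*, *Col6a5*, *Col24a1*, *Col10a1*, *Col6a4*, *Col13a1* and *Col26a1*. Their highest levels ran from 0.0331 CPM (*Col26a1* in BrT1) to 9.86 CPM (*Col11a2* in Br53T1), 9 of them in a tumor, and none of the 44 was without any read.

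Read per cell, collagen reads were present in nearly all tumor cells, and the median tumor cell held more of them than the median luminal cell of any mouse. The median cell had 932 CPM of collagen reads in Br53T1, 531 in Br53T2, 3466 in BrT1 and 2468 in BrT2, and 44.5 to 191 CPM in luminal mice. After thinning, the median number of different collagens in a cell was 8 in Br53T1, 6 in Br53T2, 11 in BrT1 and 11 in BrT2, against 1 or 2 in luminal mice. Detected genes of any kind, without thinning, had a median per cell of 5365 (BrT2) to 6575 (Br53T1) in tumors. In luminal mice it was 3672.5 (v53L) to 5723 (pBrL-2). Cells with at least 100 CPM of collagen were 29 of 30 in Br53T1, 40 of 51 in Br53T2, 47 of 47 in BrT1 and 37 of 37 in BrT2, against 34% to 64.1% in luminal mice. The 5 cells with most collagen held 26.9% of the collagen of BrT1, 27.1% of BrT2, 34.5% of Br53T1 and 44.2% of Br53T2, so Br53T2 was the most uneven tumor. Per cell the Br53T2 range ran from 1.52 to 8930 CPM.

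**Figure D3:**
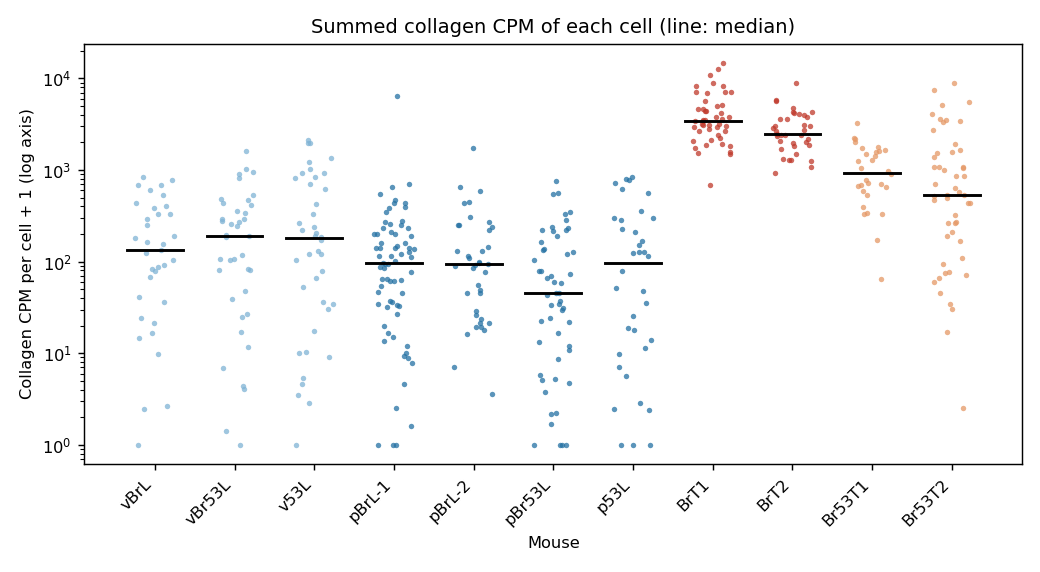
Summed collagen level of every cell (points, CPM + 1 on a log axis) in each mouse (horizontal axis), with the median as a black line. The tumor medians lie between 531 and 3466 CPM and the luminal medians between 44.5 and 191 CPM, and 1 cell of pBrL-1 lies at 6368 CPM.

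**Figure D4:**
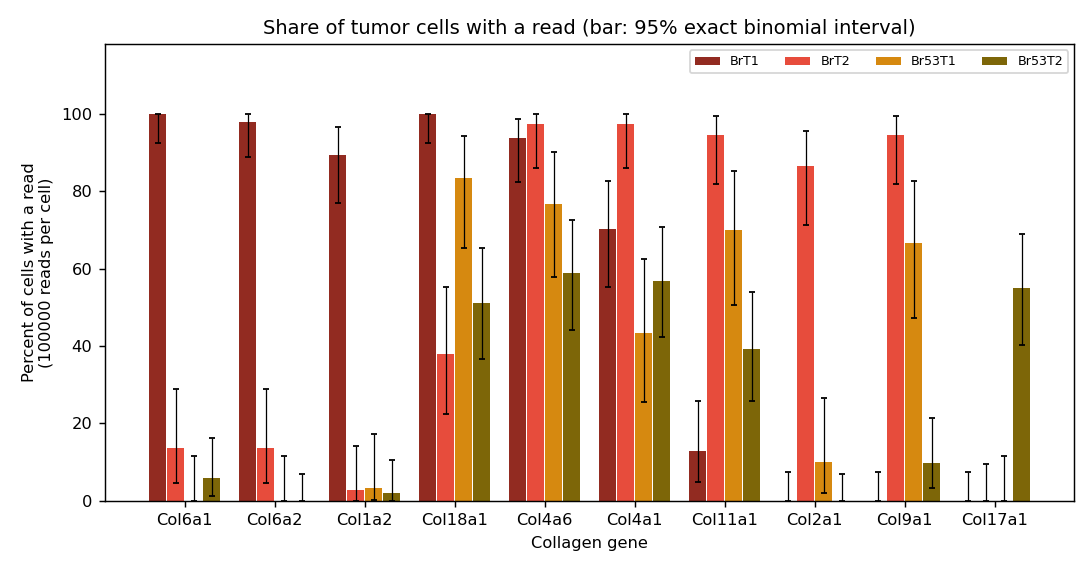
Percent of cells with at least 1 read after thinning to 100000 reads per cell (vertical axis) for 10 collagens (horizontal axis) in the 4 tumors, with exact 95% binomial intervals as bars. *Col6a1* is read in 47 of 47 cells of BrT1, *Col2a1* in 32 of 37 cells of BrT2 and *Col17a1* in 28 of 51 cells of Br53T2, and *Col4a6* is frequent in all tumors.

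The shares of cells followed the same division. In BrT1, the *Col6a1* read count was above 0 in 47 of 47 cells and *Col6a2* in 46 of 47, whereas in BrT2 each was read in 5 of 37. *Col11a1* was read in 35 of 37 BrT2 cells, 21 of 30 Br53T1 cells, 20 of 51 Br53T2 cells and 6 of 47 BrT1 cells. *Col4a6* was frequent in all tumors, with 44 of 47, 36 of 37, 23 of 30 and 30 of 51 cells in the order of BrT1, BrT2, Br53T1 and Br53T2. In luminal mice it was read in 3 to 15 cells. Both *Col4a1* and *Col4a2* were read in 30 cells of BrT1 and 27 of BrT2, where *Col4a1* was read in 33 and 36 cells and *Col4a2* in 36 and 27.

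To ask which collagens separate tumors from *Brca1*-deficient luminal cells, counts summed per mouse were compared between the 4 tumors and vBrL, pBrL-1, pBrL-2, vBr53L and pBr53L. The fitted difference was above 0 for 24 of the 26 collagens tested. It was 9.06 ± 1.79 for *Col18a1*, 7.27 ± 1.56 for *Col11a1*, 3.40 ± 0.91 for *Col4a6* and 2.91 ± 0.98 for *Col4a1* (log2, SE). None passed an adjusted p under 0.05 with edgeR's quasi-likelihood test: *Col18a1* had 0.0517, *Col11a1* 0.0645, *Col4a6* 0.125, *Col6a1* 0.183 and *Col4a1* 0.213.

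In numbers, edgeR called 0 of 26 collagens and 0.609% of all 12978 genes tested. At an unadjusted p under 0.05 the counts were 13 collagens and 13.8% of all genes. DESeq2 called 8 collagens, against 6.23% of all genes, all higher in tumors: *Col18a1* (adjusted p 2.59e-06), *Col11a1* (2.90e-08), *Col14a1* (1.24e-04), *Col4a6* (0.00219), *Col7a1* (0.00526), *Col1a1* (0.0188), *Col4a1* (0.0275) and *Col25a1* (0.0441). Without overlap, 5 collagens, *Col11a1*, *Col4a1*, *Col7a1*, *Col18a1* and *Col4a5*, were higher in every tumor than in every luminal mouse compared, as were 5.01% of all genes. With the top cell left out in 1 mouse at a time, an alternative chosen after seeing the data, 3 of the 5 kept this in each case, while *Col11a1* lost it without that cell of BrT1 (1.22 CPM) and *Col4a5* without that of Br53T2 (63 CPM). The median difference was 3.20 over the collagens tested and 0.06 over all genes. A collagen low in luminal mice passed the low-count filter through its tumors, so these counts describe the chains that passed and do not speak for the 44.

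Single mice decided some calls. Without the *Acta2*-high cell of pBrL-1 the difference of *Col4a1* was 3.64 ± 0.98 (log2, SE) and that of *Col4a2* 4.04 ± 1.52, and 14 collagens had an unadjusted p under 0.05. Without that cell, edgeR called *Col18a1* (12.31 ± 1.40, log2, SE; adjusted p 0.00679), and without the whole mouse it also called *Col18a1*. Without BrT1 it called *Col11a1*, and without Br53T2 it called *Col2a1*. Over 18 alternatives the adjusted p of *Col18a1* ran from 2.59e-06 to 0.262 and that of *Col11a1* from 2.90e-08 to 0.495. The fitted difference of *Col17a1*, 7.35 ± 2.58 with all mice, was -1.32 without Br53T2.

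**Figure D5:**
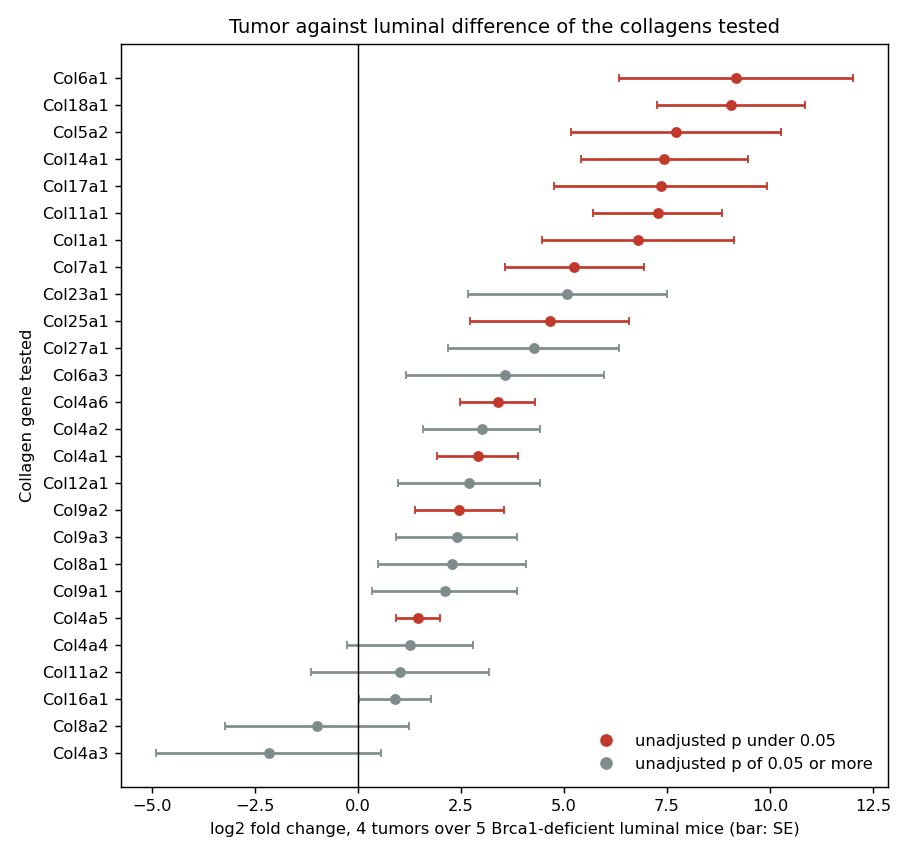
Fitted log2 fold change of the 4 tumors over the 5 *Brca1*-deficient luminal mice (horizontal axis, bars are the SE) for the 26 collagens tested (vertical axis), with unadjusted p under 0.05 in red. The points lie right of 0 for 24 chains, and those of *Col8a2* and *Col4a3* lie left of it, with bars that cross 0.

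Whether pregnancy changes luminal collagens was compared between 4 pregnant and 3 virgin mice in a model that also held genotype. The fitted pregnant minus virgin difference was -10.71 ± 1.20 for *Col8a1*, -2.60 ± 0.70 for *Col4a5* and 4.27 ± 1.11 for *Col9a1* (log2, SE). The edgeR adjusted p was 0.0613 for *Col8a1*, 0.324 for *Col9a1* and 0.336 for *Col4a5*, so none passed. Within the chip of the Br53 mice, *Col9a1* was 41.1 CPM in pregnancy and 9.90 in the virgin mouse, and within the chip of the 53 mice 139 and 10.7. For *Col8a1* the same pairs were 0.00993 and 7.68, and 0.0218 and 320.0 CPM, and without its top cell the virgin mouse vBr53L had 0.641.

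By edgeR, 0 of 27 collagens were called, as were 0.0146% of all 13709 genes, and 6 had an unadjusted p under 0.05, against 8.99%. DESeq2 called 5, against 7.7% of all genes: *Col9a1* higher (adjusted p 5.34e-05) and *Col8a1* (2.07e-22), *Col8a2* (1.54e-05), *Col4a5* (0.00276) and *Col6a3* (0.0174) lower. Between the stages, 7 did not overlap, against 11.4% of all genes: *Col9a1*, *Col27a1* and *Col18a1* higher and *Col9a3*, *Col8a2*, *Col8a1* and *Col4a5* lower in pregnancy. Of these, *Col18a1* and *Col27a1* were at most 1.96 and 6.50 CPM in luminal mice. Without its *Acta2*-high cell, pBrL-1 had 0.00876 CPM of *Col18a1* against 0.0144 in vBrL, so the stages then overlapped for this chain. With the top cell left out in 1 mouse at a time, 4 of the 7 came to overlap, *Col18a1* (pBrL-1 or pBrL-2), *Col27a1* (pBrL-1 or p53L), *Col9a3* (vBrL or v53L) and *Col8a2* (vBr53L, which had 3 reads), whereas *Col9a1*, *Col8a1* and *Col4a5* stayed apart. Without the *Acta2*-high cell, 7 collagens had an unadjusted p under 0.05, now with *Col4a2* (-7.41 ± 2.60, log2, SE), and edgeR again called 0. Over the 4 mice of the chips that held both stages, with chip in the model, edgeR called *Col8a1* (-12.01 ± 1.25, log2, SE; adjusted p 0.0344), and *Col9a1* had 2.95 ± 0.82 (adjusted p 0.452), with 1 residual degree of freedom. edgeR also called *Col8a1* without genotype in the model, and without pBrL-2, vBr53L, pBr53L or p53L. Its adjusted p ran from 2.07e-22 to 0.198 over 15 alternatives, and that of *Col9a1* from 5.34e-05 to 0.489.

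*Brca1*-deficient and *Brca1* wild type luminal mice were compared in a model that also held stage. The fitted deficient minus wild type difference was -3.41 ± 1.14 for *Col8a1* and 9.99 ± 3.76 for *Col4a2* (log2, SE). For both, edgeR gave an adjusted p of 0.778. Without the *Acta2*-high cell of pBrL-1, the difference of *Col4a2* was 8.87 ± 3.18. Of 27 collagens, edgeR called 0, as it did for 0.0% of all genes, and 2 had an unadjusted p under 0.05, against 5.97%. DESeq2 called 1 (*Col8a1*, adjusted p 0.0438), against 3.71% of all genes. Both wild type mice were on the same chip, so chip and genotype cannot be told apart here. Both were also Trp53 fl/+, whereas 3 of the 5 deficient mice had intact *Trp53*, and *Trp53* genotype was not in the model. Over the 4 Trp53 fl/+ luminal mice alone, edgeR called 0 of 13 collagens tested and 0 genes, with 1 collagen at an unadjusted p under 0.05, and *Col8a1* had -4.73 ± 1.12 (log2, SE; adjusted p 1.00). v53L, with 320.0 CPM, set the *Col8a1* value of that arm, next to 0.0218 in p53L, and without v53L the difference was -0.11.

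Tumors with and without the floxed *Trp53* allele were set side by side, with 2 mice in each arm. The fitted Br53 minus Br difference was -12.94 ± 2.53 for *Col6a2*, -10.96 ± 2.58 for *Col6a1* and 9.95 ± 3.23 for *Col17a1* (log2, SE). None passed: edgeR's adjusted p was 1.00 for each, it called 0 of 33 collagens and 0.0% of all 13477 genes, and 6 collagens against 3.98% of all genes had an unadjusted p under 0.05. DESeq2 called 5, against 2.34%: *Col6a1*, *Col6a2* and *Col1a2* lower and *Col17a1* and *Col23a1* higher. The 3 lower chains were highest in BrT1 and the 2 higher chains in Br53T2. Without BrT1 the difference of *Col1a2* changed sign, to 2.87. Without BrT2 edgeR called 5 collagens, but the Br arm was then BrT1 alone and the spread came from the Br53 pair, which assumes that a single tumor varies like that pair. These calls compare BrT1 with the Br53 tumors and not the genotypes. They were *Col6a1*, *Col6a2* and *Col1a2*, which were highest in BrT1, and *Col9a1* and *Col9a3*, which had 0 reads there. Between the arms, 8 collagens did not overlap, which is 24.2% of those tested against 31.9% of all genes: *Col23a1* and *Col17a1* higher, and *Col5a2*, *Col6a2*, *Col6a1*, *Col8a1*, *Col4a6* and *Col4a5* lower in Br53 tumors. With the top cell left out in 1 mouse at a time, 6 of the 8 stayed apart, while *Col17a1* came to overlap without that cell of Br53T1 and *Col8a1* without that of BrT2.

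The interaction asked whether the tumor difference itself varied with the *Trp53* genotype. edgeR called 0 of 40 collagens and 0.00664% of all 15051 genes, and 2 collagens, *Col17a1* (12.21 ± 4.17, log2, SE) and *Col4a6* (-3.85 ± 1.45), had an unadjusted p under 0.05, against 5.0% of all genes. Their adjusted p was 0.920. Without the *Acta2*-high cell 3 had an unadjusted p under 0.05, now with *Col4a1* (-3.43 ± 1.25, log2, SE), and their adjusted p was 0.924. DESeq2 called *Col17a1* (adjusted p 0.00423), 1 collagen against 2.74% of all genes.

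The genes that make, cross-link, bind and degrade collagen were read in the same fits, from a list of 54. In tumors against *Brca1*-deficient luminal mice, 39 could be tested and edgeR called 4, against 0.609% of all genes, all higher: *P4ha1* (5.23 ± 0.68, log2, SE; adjusted p 0.0131), *Loxl3* (13.94 ± 1.56; 0.00756), *Mmp2* (10.71 ± 1.74; 0.0282) and *Mrc2* (10.31 ± 1.94; 0.0471). *Loxl3* and *Mrc2* were among the genes the study had picked from these cells and bulk RNA sequencing, as was *Plod2*. At an unadjusted p under 0.05 there were 18 of the 39, against 13.8%. DESeq2 called 12, again all higher, against 6.23% of all genes, these 4 with *Crtap*, *Plod2*, *Colgalt2*, *Fkbp10*, *Pcolce*, *Itgb1*, *Ddr1* and *Mmp14*. As for the collagens, a gene near 0 in luminal mice passed the low-count filter through its tumors, so these counts describe the 39 genes that passed and not the 54.

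By step, the enzymes stood as follows. *P4ha1*, a subunit of the prolyl hydroxylase that makes the collagen helix stable, had 90.8 CPM in Br53T1, 88.4 in Br53T2, 343 in BrT1 and 227 in BrT2, and at most 7.17 CPM in luminal mice. Its partner *P4hb* was 371 to 649.6 CPM in luminal mice and 1540.5 CPM in Br53T1, 494 in Br53T2, 1460.0 in BrT1 and 1169 in BrT2. *Plod2*, a lysyl hydroxylase of cross-linked collagen, had 16.7 CPM in Br53T1, 36.6 in Br53T2, 74.6 in BrT1 and 125 in BrT2, and at most 4.22 CPM in luminal mice, with an edgeR adjusted p of 0.186. *P3h2*, a prolyl 3-hydroxylase that acts on type IV chains, had 68.9 CPM in Br53T1, 3.71 in Br53T2, 0.0221 in BrT1 and 328 in BrT2, and lowest 4.93, median 36.1 and highest 49.9 CPM (p53L) in luminal mice.

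Cross-linking and processing genes were next. *Loxl3*, a lysyl oxidase, had 67.7 CPM in Br53T1, 0.936 in Br53T2, 105 in BrT1 and 80.1 in BrT2, and at most 0.0655 CPM in luminal mice. In Br53T2, 1 cell held 81.2% of its reads. *Loxl1* had 0.0182 CPM in Br53T1, 7.35 in Br53T2, 188 in BrT1 and 0 in BrT2. *Pcolce*, which speeds the removal of fibrillar propeptides, had 41.2 CPM in Br53T1, 43.6 in Br53T2, 565 in BrT1 and 95.7 in BrT2, and *Bmp1*, the protease it assists, had 182 CPM in Br53T1, 65.5 in Br53T2, 122 in BrT1 and 19.9 in BrT2, against at most 15.6 and 58 CPM in luminal mice. The 5 cross-linking genes summed to 71.3 CPM in Br53T1, 9.92 in Br53T2, 358 in BrT1 and 91.4 in BrT2, against 0 to 2.12 CPM in luminal mice.

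Genes that bind or degrade collagen followed. *Mmp2*, a gelatinase that cuts type IV and denatured collagen, had 62.4 CPM in Br53T1, 11.7 in Br53T2, 178 in BrT1 and 169 in BrT2, and at most 0.286 CPM in luminal mice. *Mmp14*, its membrane-bound activator, had 132 CPM in Br53T1, 111 in Br53T2, 219 in BrT1 and 32.9 in BrT2, and lowest 0.636, median 6.17 and highest 77.7 CPM (v53L) in luminal mice. *Mrc2*, an uptake receptor for collagen fragments, had 2.26 CPM in Br53T1, 0.628 in Br53T2, 17.8 in BrT1 and 11.8 in BrT2, and at most 0.327 CPM in luminal mice. All of its Br53T1 reads and 73.7% of its Br53T2 reads were in 1 cell each. The kinase receptor *Ddr2* stood at 227 CPM in BrT1 and 53.4 in vBrL and at most 2.53 elsewhere, whereas *Ddr1* was 127 CPM in Br53T1, 49.3 in Br53T2, 31.5 in BrT1 and 61.5 in BrT2. *Sparc*, a collagen chaperone and matrix protein, had 897 CPM in Br53T1, 785 in Br53T2, 855 in BrT1 and 386 in BrT2, and lowest 0.526, median 3.44 and highest 91.8 CPM (pBrL-1) in luminal mice, where the *Acta2*-high cell of pBrL-1 alone had 6209 CPM.

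Several general genes of the pathway stood above 100 CPM in luminal mice too. The chaperone gene *Hsp90b1* had 580.4 CPM in Br53T1, 721 in Br53T2, 1533 in BrT1 and 558 in BrT2, and lowest 491, median 593 and highest 693 CPM (vBrL) in luminal mice. The prolyl isomerase gene *Ppib* had 126 CPM in Br53T1, 205 in Br53T2, 314 in BrT1 and 266 in BrT2, and lowest 124, median 173 and highest 224 CPM (vBr53L) in luminal mice. The export receptor gene *Mia3* had 135 CPM in Br53T1, 69.6 in Br53T2, 90.2 in BrT1 and 203 in BrT2, and lowest 95.4, median 129 and highest 150.2 CPM (p53L) in luminal mice. The lysyl hydroxylase genes *Plod1* and *Plod3* had at most 255 and 141 CPM in tumors and 29.3 and 42 in luminal mice, and the glycosyltransferase gene *Colgalt1* at most 144 and 160.4. The integrin subunit gene *Itgb1* had 547 CPM in Br53T1, 377 in Br53T2, 602 in BrT1 and 493 in BrT2, and lowest 133, median 192 and highest 308 CPM (v53L) in luminal mice.

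Between stages, edgeR called 0 of 35 list genes, with 7 at an unadjusted p under 0.05 (8.99% of all genes), and DESeq2, which called 7.7% of all genes, called *P3h2* and *Pcolce2* higher and *P3h3*, *Fkbp10*, *Bmp1*, *Pcolce* and *Mmp14* lower in pregnancy. *Bmp1* was 11.5, 55 and 58 CPM in the virgin mice and at most 1.21 in the pregnant mice. edgeR also called 0 list genes by *Brca1* status (of 35, with 3 at an unadjusted p under 0.05, against 5.97% of all genes), between Br53 and Br tumors (of 43, with 5, against 3.98%) and in the interaction (of 46, with 4, against 5.0%). DESeq2 called *P4ha2* and *Ddr2* higher in *Brca1*-deficient luminal mice (3.71% of all genes were called), *Mmp13* higher in Br53 tumors (2.34%), and in the interaction (2.74%) *Sparc* and *Ctsk* higher and *Loxl1* lower.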

How the data were processed

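RNA of single cells captured on 8 Fluidigm C1 chips was sequenced in 11 mice of 10 groups. The authors trimmed the reads with sickle and Trim Galore 0.4.1, aligned them to mm10 with STAR 2.5.3a and deposited raw read counts per gene and cell from Subread 1.5.3. The annotation and the strand setting of the counting are not given in the sources used here, so reads of overlapping genes may be shared. Capture sites had been inspected for doublets, so no doublet caller was run, and 0 pairs of cells held identical values.

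Counts were summed per mouse, the unit of replication, and compared with edgeR 4.0.16 (quasi-likelihood test, TMM, filterByExpr) in R 4.3.3 over all genes that passed the filter, with Benjamini-Hochberg adjustment and a threshold of 0.05. DESeq2 1.42.0 and limma 3.58.1 were alternatives. CPM and shares of cells were computed in Python 3.11.15 with pandas 2.3.3 and scipy 1.17.1. For shares, each cell was thinned to 100000 reads, 0 cells were too shallow, and intervals are exact binomial (95%). Summed levels were averaged as log2(CPM + 1). The scripts were tested on simulated data. Every collagen is accounted for, those reaching 10 CPM in a mouse with values, and genes of the pathway lists were named where called or at 100 CPM. The collagens and lists were chosen with earlier results of these data known. Promoter sequences come from RefSeq (GRCm38.p6), where 9 of the 44 collagens had no window.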

Additional observations from a re-analysis of the deposited data

Results flagged for a closer look

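Sets of values were taken in groups of 4 tumors or 7 luminal mice. In 15 of 68 sets, a mouse had a gap to the nearest other, divided by the whole range, that passed Dixon's limit. A chance rate of 1 in 20, or about 3.4 sets, assumes independent, normally spread values not picked by level. Here *Col1a2* and *Col17a1* reached 10 CPM in 1 tumor alone, and most luminal mice had no read of *Col5a1*. The count of 15 is therefore a description and cannot be compared with chance. The gaps were taken on the log2(CPM + 1) scale.

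Among tumors, BrT1 stood apart as the highest for *Col1a2* (0.852, 466 CPM against 1.74 in the next), *Col5a3* (0.943, 43.1 against 0.242) and *Col4a3* (0.993, 4.23 against 0.0110). Br53T2 was apart for *Col17a1* (0.972, 209 against 0.182) and *Col23a1* (0.883, 17.0 against 0.401). Br53T1 was apart as the lowest for *Col4a2* (0.854, 26.7 against 128).

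Among luminal mice, pBrL-1 was apart for *Col18a1* (0.864, 1.96 against 0.159), *Col5a1* (0.917, 0.596 against 0.0397) and *Col17a1* (0.855, 1.17 against 0.119). The *Acta2*-high cell held 99.6% of its *Col18a1* reads, 100% of its *Col5a1* reads and 11% of its *Col17a1* reads, and another cell held 88.2% of the last. pBrL-2 was apart for *Col5a2* (0.749, 1.23 against 0.223), *Col27a1* (0.885, 6.50 against 0.262), *Col25a1* (0.578, 2.39 against 0.673) and *Col4a3* (0.889, 20.8 against 0.407). v53L was apart for *Col6a3* (0.619, 16.9 against 2.01) and vBr53L for *Col4a4* (0.617, 11.5 against 1.63). None of these gaps was given a cause here.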

How the results depend on the processing

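With 1 mouse in most groups, the number of collagens called depended on the test. For tumors against luminal mice, edgeR called 0 collagens and 79 genes, DESeq2 8 and 808, limma on means over cells of log2(CPM + 1) 6 and 575, edgeR without the low-count filter 4 and 129, with all 7 luminal mice 3 and 213, and with pregnant luminal mice alone 1 and 44. Virgin luminal mice alone gave 0 genes, and 1 collagen was called without the *Acta2*-high cell, an alternative chosen after seeing the data. Leaving out 1 mouse gave 0 to 1 collagens and 11 to 94 genes. For pregnancy, against 0 collagens and 2 genes, DESeq2 called 5 and 1055, no filter 3 and 366, limma 2 and 486, no covariate 1 and 17, the 4 mice of the chips that hold both stages 1 and 8 (chosen after seeing the data), and leaving out a mouse 0 to 1 and 0 to 41. For *Brca1* status, against 0 and 0, DESeq2 called 1 and 508, no filter called 10 genes, and leaving out a mouse gave 0 to 0 collagens and 0 to 127 genes, while the 4 Trp53 fl/+ mice gave 0 and 0 (chosen after seeing the data). For Br53 against Br tumors, against 0 and 0, DESeq2 called 5 and 315, no filter 7 and 295, and leaving out a mouse, which leaves 1 tumor in an arm, 0 to 5 and 0 to 228. For the interaction, against 0 and 1, DESeq2 called 1 and 412, no filter 3 and 281, limma 0 genes, and leaving out a mouse 0 to 0 and 0 to 156. The causes were not tested.

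The fold changes followed were those of chains reaching 10 CPM with an unadjusted edgeR p under 0.05 with all mice. Being picked this way, they do not speak for the other fold changes. Of 210 such fold changes with a mouse left out, 2 reversed: *Col17a1* in tumors without Br53T2 (-1.32, and up to 7.75 without Br53T1) and *Col1a2* in Br53 against Br tumors without BrT1 (2.87, and down to -9.70 without Br53T2). The other 199 kept direction and side of the threshold and 9 became called. Under the other alternatives 171 kept both and 44 became called. The mean log2 levels of the classes moved by less than 1 SD in the 30 settings that kept all mice. The 55 settings that left out 1 mouse could not have failed, because dropping 1 value moves a mean by less than 1 SD. Of the shares of cells, without thinning 22 left their interval and 6 did not, and with 5 reads required in place of 1, at the same depth, 13 left it and 15 did not. Replicate numbers gave no pairing, because the groups compared share fewer than 2 of them. The only paired analysis was the fit by shared chip given above for pregnancy.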
